A study of Mus musculus with 9 samples.

Results

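The variable (V) segments of the T cell receptor loci were measured by RNA sequencing in mouse CD8+ T cells carrying the OT-I receptor, a transgenic receptor for a peptide of ovalbumin. The members were all genes of the GENCODE M21 annotation (build GRCm38, the same assembly as mm10) whose symbol begins with Trav, Trbv, Trgv or Trdv. They were 170 of the 55471 gene identifiers in the count files. The beta locus on chromosome 6 held 35 of them between 40891229 and 41558452, with 22 annotated as functional V genes and 13 as pseudogenes. The alpha locus on chromosome 14 held 128 between 52427928 and 53977678, with 108 functional genes and 20 pseudogenes. The delta locus, on the same chromosome, held 6 between 53881612 and 54149294. One gamma segment, Trgv2, at 19336573 to 19337167 of chromosome 13, met the rule, because GENCODE M21 names the other gamma V genes Tcrg-V.

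The 9 libraries formed a control group (n = 4) and a ketolysis-deficient group called DKO (n = 5), numbered as replicates in the labels. Control cells were Bdh1-WT and carried a short hairpin RNA against firefly luciferase (shCtrl), and DKO cells were Bdh1-KO and carried a hairpin against Oxct1 (shOxct1). In both groups naive OT-I cells were activated for 24 h with antibodies to CD3ε and CD28 and 50 U/mL IL-2, transduced, cultured for 2 more days and sorted for Ametrine, a fluorescent protein. They were then transferred into C57BL/6 CD45.1 mice, which were infected with LmOVA (Listeria monocytogenes expressing ovalbumin) and yielded CD45.2+ Ametrine+ cells from the spleen on day 7. The animals' age, the driver of the knockout and whether replicates came from separate donors or recipients are not given in the labels, so p-values measure only the spread between these libraries. The recipients had their own CD45.1+ T cells, which the final sort was set to leave out.

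A receptor chain is made in the thymus when 1 V segment is joined to a joining (J) segment, with a diversity (D) segment between them in beta and delta chains, and the product is spliced to a constant gene. Most T cells carry an alpha chain paired with a beta chain, whereas gamma-delta T cells carry a gamma chain paired with a delta chain. A functional beta chain stops further beta rearrangement, while alpha rearrangement goes on until selection and can take place on both chromosomes. Alpha rearrangement starts with V segments near the J cluster and moves outward, and the delta genes lie inside the alpha locus. Large parts of the mouse alpha V region are duplicated, and the copies carry a d or an n in their symbols. The OT-I receptor is known to pair an alpha chain of the Trav14 family with a beta chain of the Trbv12 family.

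Sequences are shown first because a read was counted only if it mapped to 1 place, so the counts of a segment depend on how far it differs from its copies. The last 290 bases of the V exon of Trbv12-1 (chr6:41113778-41114067, plus strand) are set beside the same stretch of Trbv12-2 (chr6:41119075-41119364, plus strand), whose capitals mark the bases that differ from Trbv12-1. All sequences are GENCODE M21 transcripts on GRCm38, written 5′ to 3′.
Trbv12-1: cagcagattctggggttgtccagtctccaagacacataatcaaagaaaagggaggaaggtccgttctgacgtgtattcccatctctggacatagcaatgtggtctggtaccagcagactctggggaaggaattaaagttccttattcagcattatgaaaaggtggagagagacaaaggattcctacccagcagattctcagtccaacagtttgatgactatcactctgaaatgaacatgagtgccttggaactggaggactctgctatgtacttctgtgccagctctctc
Trbv12-2: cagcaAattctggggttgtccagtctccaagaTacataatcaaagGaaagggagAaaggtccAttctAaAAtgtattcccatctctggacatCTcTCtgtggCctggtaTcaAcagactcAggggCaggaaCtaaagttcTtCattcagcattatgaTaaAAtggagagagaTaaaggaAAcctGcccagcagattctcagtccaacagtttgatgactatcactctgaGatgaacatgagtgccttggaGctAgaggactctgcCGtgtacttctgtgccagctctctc
The stretches differed at 32 bases spread along their length, and over the whole V exon of 293 bases they were 89.1% identical. All 50-base stretches of the Trbv12-1 transcript were absent from every other annotated transcript, and 98.8% of those of Trbv12-2 were.

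The Trav14 family had closer copies. A stretch of 270 bases of the V exon is shown for Trav14-1 (chr14:53554289-53554558), for Trav14-3 (chr14:53763425-53763694) and for Trav14d-1 (chr14:52855897-52856166), all on the plus strand, with capitals marking bases that differ from Trav14-1.
Trav14-1: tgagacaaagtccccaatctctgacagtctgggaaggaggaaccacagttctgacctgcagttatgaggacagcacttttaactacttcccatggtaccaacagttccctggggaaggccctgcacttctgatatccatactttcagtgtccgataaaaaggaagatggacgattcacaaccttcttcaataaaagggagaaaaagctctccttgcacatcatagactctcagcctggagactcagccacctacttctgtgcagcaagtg
Trav14-3: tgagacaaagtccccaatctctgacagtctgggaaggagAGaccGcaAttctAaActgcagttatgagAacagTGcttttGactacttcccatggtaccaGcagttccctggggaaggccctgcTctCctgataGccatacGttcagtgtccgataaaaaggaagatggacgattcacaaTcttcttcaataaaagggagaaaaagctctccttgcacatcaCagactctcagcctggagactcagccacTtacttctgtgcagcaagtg
Trav14d-1: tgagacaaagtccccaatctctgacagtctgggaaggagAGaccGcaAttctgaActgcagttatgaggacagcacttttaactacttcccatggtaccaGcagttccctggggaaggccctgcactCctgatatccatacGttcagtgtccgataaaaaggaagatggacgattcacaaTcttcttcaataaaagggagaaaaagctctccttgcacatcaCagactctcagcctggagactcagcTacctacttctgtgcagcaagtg
Trav14-3 differed from Trav14-1 at 18 bases and Trav14d-1 at 11 bases. The stretch of Trav14n-1 (chr14:53166909-53167178) had the same letters as that of Trav14d-1, and the 2 V exons of 312 bases were identical throughout. Trav14d-2 and Trav14n-2 were likewise identical to each other. None of the 50-base stretches of these 4 transcripts was unique to its gene, against 95.1% for Trav14-1, 54.4% for Trav14-2 and 43.3% for Trav14-3. Genome sequence outside annotated transcripts was not searched.

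Libraries held 45205993 to 59853080 counts in genes, and V segments took 232476 counts over all 9 libraries. Values are given as CPM, the usual counts-per-million scale over counts in genes, in which 3 counts were worth 0.0501 to 0.0664 CPM. The targeted genes followed the labels: Oxct1 fell from 63.5 CPM in control to 5.14 in DKO (log2 fold change −3.61, adjusted p = 4.58e-09) and Bdh1 from 30.6 to 10.6 (−1.52, adjusted p = 0.000136), with no overlap of libraries. Control replicates 1 and 3 stood apart from the other libraries on the first 2 principal components of all genes. Control replicate 1 also had 16.7% unmapped reads, the highest of the libraries, so values without these 2 libraries are given where they matter. All 6 genes of the CD8 T cell list (Cd8a, Cd8b1, Cd3d, Cd3e, Cd3g and Cd247) exceeded 1 CPM, while Cd4 averaged 0.172 CPM in control and 0.343 in DKO. Of that list only Cd8a and Cd8b1 are particular to CD8, since other T cells share the rest. Of the 4 CD4 T cell markers, Cd40lg (20.5 and 29.3 CPM) and Zbtb7b (14.6 and 11.7) exceeded 1 CPM, the list summed to 30.4 to 39.1 CPM in control and 34.4 to 46.0 in DKO, and 0 of the 4 passed the test. The recombination genes Rag1 and Rag2 had no count in any library, and Dntt, which adds bases at the joints, had 62 counts in all.

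Of the 170 V segments, 118 had at least 1 count, 63 had a count in every library and 52 had none. The beta locus gave 181538 counts, the alpha locus 23770, the delta locus 25203 and Trgv2 1965.

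The beta locus was dominated by Trbv12-1 (ENSMUSG00000095574.2, chr6:41113550-41114067, 389 exon bases). Its share of all Trbv counts was 97.8%, 98.1%, 98.2% and 98.0% in control replicates 1 to 4 and 97.7%, 98.0%, 97.8%, 98.2% and 98.1% in DKO replicates 1 to 5. The libraries thus lay within a range of less than 1 percentage point, and the groups overlapped. The mean was 98.0% ± 0.151 (SD, n = 4) in control and 97.9% ± 0.204 (SD, n = 5) in DKO, a difference of −0.0769 percentage points (exact permutation test, two-sided, p = 0.540, adjusted p = 0.952 over the 3 shares tested). The smallest p that this exact permutation test can give is 0.0159. Exact 95% (Clopper-Pearson) intervals, which cover counting error only and take each read as independent, ran from 97.4 to 97.9% in DKO replicate 1 and from 98.0 to 98.4% in DKO replicate 4. PCR copies are not independent molecules, so the intervals can be too narrow. DKO replicates 1 and 4 had the lowest and the highest of the 9 shares.

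The remaining 1.79 to 2.33% of Trbv counts were spread thinly. Trbv12-2, the functional family member shown above, took 0.481%, 0.281%, 0.312% and 0.391% in control and 0.478%, 0.212%, 0.289%, 0.513% and 0.376% in DKO. The groups overlapped fully, and the means of 0.366% ± 0.0895 (SD, n = 4) and 0.373% ± 0.126 (SD, n = 5) differed by 0.00722 percentage points (exact permutation test, p = 0.952, adjusted p = 0.952). There were 191 to 462 Trbv12-1 counts for each Trbv12-2 count. Trbv12-3, the pseudogene of the family, had no count in any library although 98.8% of its 50-base stretches were unique. The 3 Trbv12 segments together took 98.1 to 98.7% of Trbv counts, and segments outside the family took 1.28 to 1.86%.

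After Trbv12-2 came Trbv13-2 with 583 counts over 9 libraries, Trbv16 with 356 and Trbv1 with 342, each a functional segment. The share of Trbv13-2 was 0.347% ± 0.0587 in control and 0.294% ± 0.0661 in DKO. All 22 functional Trbv segments had at least 1 count. The 7 Trbv segments without a count were all pseudogenes, and the 13 pseudogenes together held 54 counts, 0.0298% of the locus. Unstranded counting drops reads in exons shared with another gene. All 285 exon bases of Trbv8 lie in AC153851.1, so its zero gives no level. Trbv4 and Trbv5, with 3 and 1 counts, share 295 and 292 exon bases with 5830405F06Rik. The 13 other Trbv segments abundant enough to be tested had mean shares of 0.0581 to 0.370%, as the plot of Trbv shares shows.

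**Figure D1:**
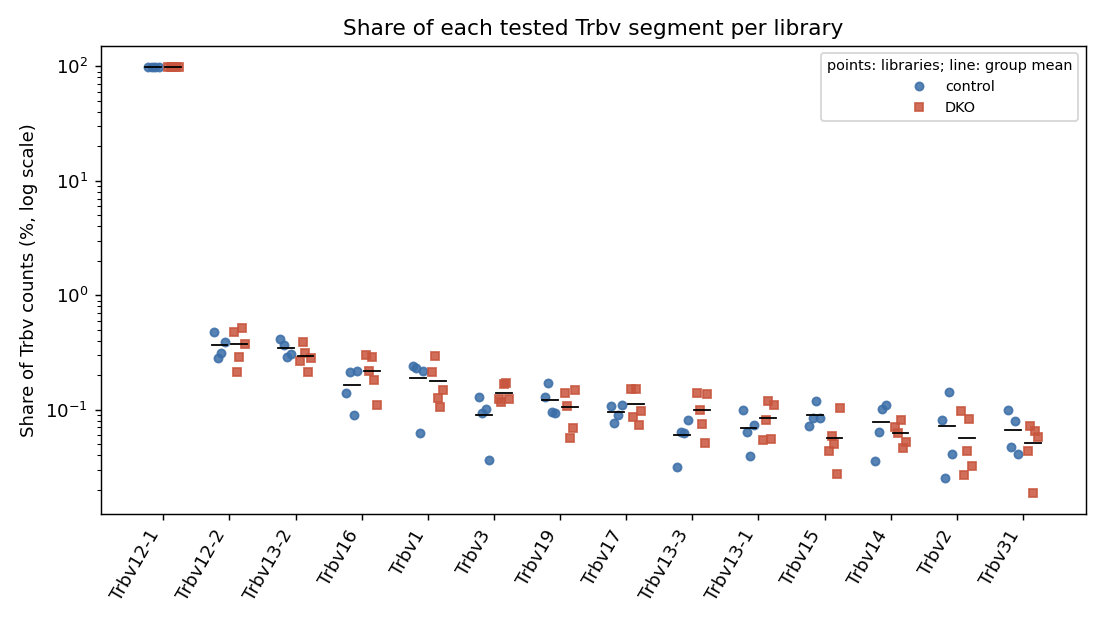
Share of Trbv counts (%, log scale) of the 14 tested Trbv segments, 1 point per library with control (n = 4, circles) and DKO (n = 5, squares) and a line at each group mean. Trbv12-1 lay between 97.7 and 98.2% in every library, and the 13 others lay between 0.0188 and 0.513%.

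The alpha locus was spread over many segments. The first segment by count took 19.0% of Trav counts on average, the first 3 took 36.3% and the first 10 took 68.8%. There were 19 segments at 1% or more and 6 at 5% or more, whereas the beta locus had 1 segment above 1%. Shares are shares of counts and are not scaled by exon length.

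Trav21-dv12 (ENSMUSG00000076863.8, chr14:53875984-53876752), a segment that can serve alpha or delta chains, led the locus. It took 20.1%, 13.2%, 19.6% and 16.6% in control and 25.5%, 17.1%, 20.5%, 19.9% and 18.1% in DKO. The groups overlapped, with 17.4% ± 3.17 (SD, n = 4) in control and 20.2% ± 3.24 (SD, n = 5) in DKO.

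Trav16 (chr14:53743104-53743705) was next by count, and 1 library set its group mean. It took 6.05%, 22.9%, 9.40% and 6.65% in control and 6.07%, 8.60%, 5.41%, 12.1% and 9.25% in DKO, so control replicate 2 stood well above the other 8. Its log2 fold change of −0.51 became 0.20 without that library. Trav19 followed with 8.30% ± 2.598 in control and 7.35% ± 2.28 in DKO. Trav8-2, annotated as a pseudogene, took 6.44% ± 1.21 and 5.58% ± 0.923. The 9 Trav pseudogenes with a count held 8.25% of Trav counts.

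Trav14-1 (ENSMUSG00000076840.4, chr14:53554022-53554558) had the most counts of the Trav14 family. It took 5.28%, 3.12%, 7.26% and 4.29% of Trav counts in control and 2.77%, 6.25%, 3.41%, 7.28% and 8.01% in DKO. Both groups held libraries on either side of 5%, and the means of 4.99% ± 1.75 (SD, n = 4) and 5.55% ± 2.34 (SD, n = 5) differed by 0.558 percentage points (exact permutation test, p = 0.683, adjusted p = 0.952). Without control replicate 2 the difference was −0.0631 points and without DKO replicate 5 it was −0.0576. Trav14-3 took 3.73% ± 1.43 and 6.18% ± 2.95, and Trav14-2 took 1.48% ± 0.948 and 1.26% ± 0.686.

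The whole Trav14 family, the family of the transgenic alpha chain, took 13.6%, 6.43%, 12.1% and 10.7% in control and 13.5%, 12.2%, 8.07%, 18.6% and 15.4% in DKO. That was far below the share of the Trbv12 family in each library, but the shares are not counted alike. The median member of the Trav14 family had 43.3% unique 50-base stretches, against 98.8% in the Trbv12 family. Reads that fit several copies were left out, so the family share does not give the part of the transgenic chain in alpha RNA. Of the family's counts, 88.1 to 98.9% were in Trav14-1, Trav14-2 and Trav14-3, with totals of 1230, 322 and 1215. Trav14n-3 had 70 counts and Trav14d-3-dv8 had 59. Of the 4 segments with no unique 50-base stretch, Trav14d-1 had 1 count, and Trav14n-1, Trav14d-2 and Trav14n-2 had none. A read from Trav14d-1 that lies within the V exon fits Trav14n-1 equally well and could not be counted for either, so these 4 zeros or near-zeros give no level for the segments.

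Shares of the abundant alpha segments differed between libraries of the same group. The coefficient of variation over the 9 libraries was 17.7 to 64.4% for the first 10 Trav segments. Trav15-1-dv6-1 varied most of these 10, from 1.76% in control replicate 2 to 9.27% in DKO replicate 2. Trav17 ranged from 1.36% in DKO replicate 5 to 9.57% in DKO replicate 3, while its 4 control libraries lay between 3.49 and 4.49%. The plot of alpha composition shows that each library had its own mixture, with no segment absent from 1 group and present in the other among these 10.

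**Figure D2:**
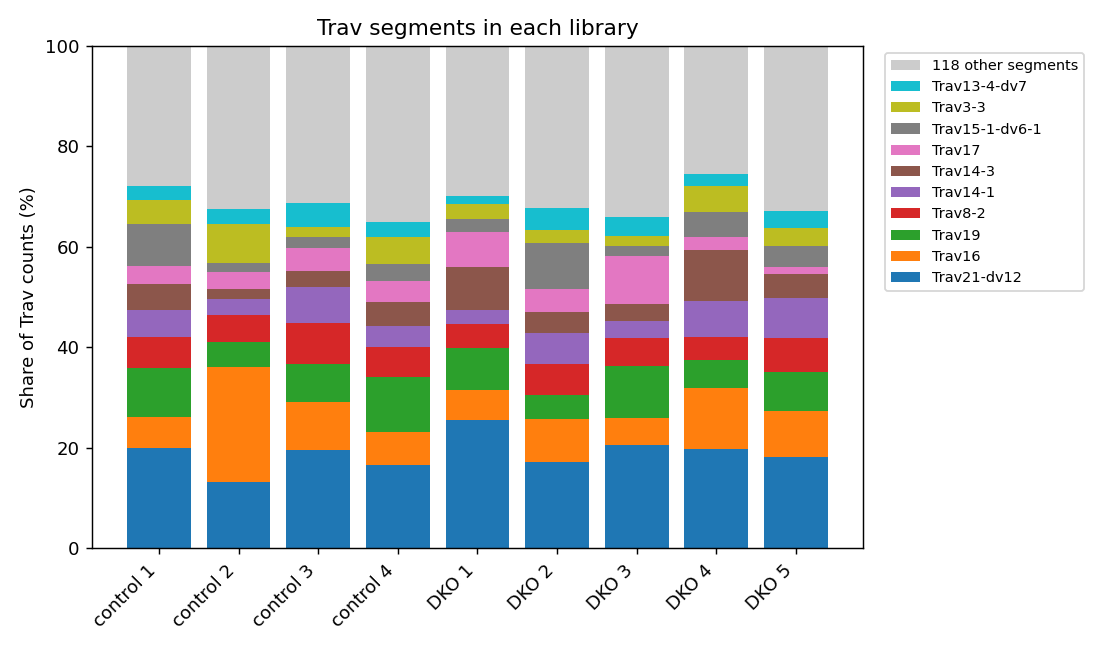
Share of Trav counts (%) of the 10 Trav segments with the largest mean share and of the 118 others together, as stacked bars for the 9 libraries. The 10 segments together took 65.0 to 74.5% of each bar, and the wide band of control 2 is Trav16 at 22.9%.

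Counts of alpha segments were set beside sequence uniqueness and position in the locus. Of the 128 Trav segments, 42 had no 50-base stretch unique to their gene. Those 42 held 11 counts, 0.046% of the locus, and 35 of them had none. The 33 segments with some but under 50% unique stretches held 16.1% of Trav counts, and the 53 with 50% or more held 83.8%. The median Trav segment was 36.8% unique and 98.9% identical to its nearest relative, against 100% and 65.3% for Trbv. Of the 45 Trav segments without a count, 10 had a unique stretch, and 7 of those 10 were pseudogenes.

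By position, the 32 segments nearest to Trac, 243 to 666 kb upstream of its start, held 21320 counts or 89.7% of the locus. The next 3 sets of 32, moving away from Trac, held 6.74%, 2.42% and 1.14%. All 10 of the segments with the largest shares lay in the nearest set. The nearest set also had no segment without a unique stretch, against 12, 19 and 11 in the others. Uniqueness did not follow position beyond that set: the farthest set had a median of 14.5% unique stretches and the set before it 0%, while the farthest held fewer counts. Segments with no d or n in the symbol held 95.8% of counts, the 39 d copies 1.83% and the 34 n copies 2.42%.

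Among the 15 Trav segments with at least 90% unique stretches, those far from Trac had few counts. Trav1, Trav2, Trav5-1 and Trav7-1, 1566 to 1793 kb upstream, had 21, 21, 22 and 17 counts over 9 libraries. Near Trac, Trav21-dv12 had 4465, Trav19 1840, Trav17 1065 and Trav23 560, but Trav18, which lay between Trav17 and Trav19, had 19. In the same nearest set, Trav14-1 had 1230 and Trav15-1-dv6-1 had 1026. The other 4 of the 15 were pseudogenes. Of these, Trav20 had 223 counts, Trav22 154 and Trav15-3 0 near Trac, and Trav4-1, far from Trac, had 0. These 15 segments thus differed widely in count at similar uniqueness. The parts of uniqueness and position in the counts of the other segments were not tested.

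**Figure D3:**
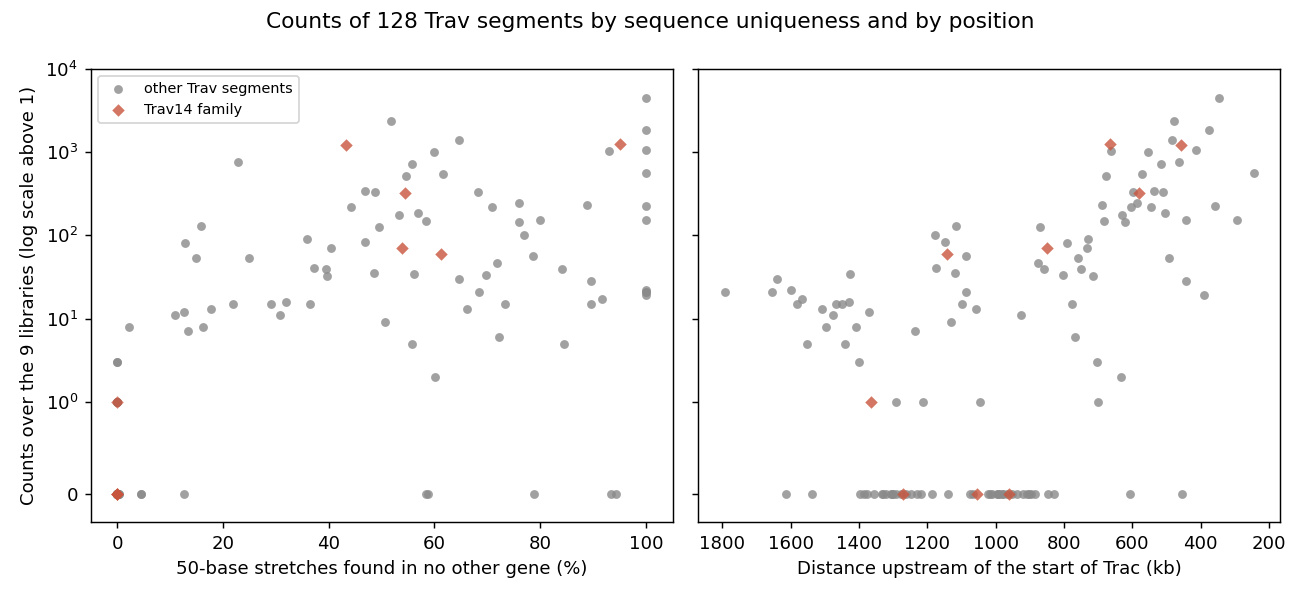
Counts over the 9 libraries of each of the 128 Trav segments (log scale above 1) against the percentage of 50-base stretches found in no other gene (left) and against the distance upstream of the start of Trac in kb (right), with the Trav14 family as diamonds. Segments with 0% unique stretches sit at or near 0 counts, and counts above 1000 occur only within 666 kb of Trac.

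Alpha V segments were also low beside their constant gene. Scaled by exon length, summed Trav reached 138 ± 20.02 CPM per kb in control and 133 ± 11.7 in DKO, while Trac, the alpha constant gene, reached 1121 ± 187 and 1006 ± 52.0. Trav was 11.5 to 14.4% of Trac in the 9 libraries. Summed Trbv reached 1093 ± 92.8 CPM per kb in control and 934 ± 98.7 in DKO, against 1401 ± 207 and 1216 ± 99.2 for the 2 beta constant genes Trbc1 and Trbc2 together. Trbv was 70.2 to 90.3% of Trbc, so the ranges of the 2 loci were far apart in every library. Reads that map to several V copies were left out of the Trav sum, and their number per locus is not given in the files. Reads that fit Trbc1 and Trbc2 alike were left out too, which lowers the Trbc sum and raises the ratio of Trbv to it.

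J segments were read in the same way. Trbj1-1 took 27.4% of Trbj counts in control and 27.0% in DKO, Trbj1-2 took 21.1% and 20.03%, and Trbj1-5 took 8.22% and 8.33%. The Trbj1 cluster summed to 117 CPM in control and 108 in DKO and the Trbj2 cluster to 20.9 and 19.6, so the beta J counts were not held by 1 segment as the beta V counts were. Of 60 Traj segments, Traj59 took 12.8% and 15.5%, and the pseudogenes Traj61 and Traj60 took 12.3% and 14.3%, and 11.5% and 13.9%. J exons are far shorter than V exons. Per kb of exon, summed Trbj reached 2807 ± 298 CPM in control and 2598 ± 261 in DKO, against 1093 and 934 for summed Trbv. A read can be longer than a J exon, so dividing by exon length raises J levels. Reads that touch exons of 2 genes are counted for neither. J and V levels per kb are therefore not counted alike and do not show which RNA was more abundant. Why the beta J counts were spread was not tested.

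Delta and gamma segments also had counts in these libraries, and the delta counts were not small. Which cells these counts came from was not tested. Summed Trdv was 72.7, 46.1, 44.8 and 53.5 CPM in control and 57.5, 54.1, 53.2, 49.9 and 58.9 in DKO, and all 6 Trdv segments had counts in every library. Per kb of exon this was 138 ± 33.5 in control and 141 ± 10.96 in DKO, close to the summed Trav level. The Trav sum left out reads that fit several copies, so the levels are not counted alike. Trdc, the delta constant gene, reached 94.8 ± 20.9 and 105 ± 5.03 CPM per kb, and Trdv was 122 to 157% of it. That ratio depends on the annotated exon length of Trdc, 3865 bases against 935 for Trac. Before scaling by length, Trdc was 366 CPM in control and 408 in DKO, against 54.3 and 54.7 for summed Trdv.

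Trdv2-2 (chr14:53960944-53961602) held 13722 of the 25203 Trdv counts. Its level was 42.5, 26.7, 25.9 and 30.4 CPM in control and 31.8, 29.7, 27.7, 28.3 and 23.7 in DKO, with control replicate 1 highest. Its share of Trdv counts was 57.7% ± 0.741 in control and 51.8% ± 6.64 in DKO, and the DKO libraries lay lower, at 40.3 to 56.6% against 56.7 to 58.4%. No test of that share was planned. Trdv1 took 18.7% ± 2.58 and 24.4% ± 9.82, where DKO replicate 5 alone reached 41.5%. Trdv4 took 20.2% ± 3.04 and 19.2% ± 3.92.

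Trdv5, Trdv2-1 and Trdv2-2 overlap other genes, and their counts depend on strand. Trdv5 lies opposite to Trdc and shares 207 exon bases with it, and Trdv2-1 and Trdv2-2 share 192 and 105 exon bases with the antisense gene Gm43647. Unstranded counting drops reads in such overlaps. The sum of the 2 strand columns was 6.31 times the unstranded count for Trdv5, 4.89 times for Trdv2-1 and 1.63 times for Trdv2-2, and it took summed Trdv from 54.5 to 75.9 CPM. Since the kit does not mark strand, the strand columns can also count reads of the partner gene, and neither value separates them. Trdv2-1 and Trdv2-2 were 97.7% identical in their V exons, so their counts are uncertain on that ground too.

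Trgv2 (ENSMUSG00000076754.2), the gamma segment of the rule, stood at 4.59, 1.87, 3.21 and 3.84 CPM in control and 5.07, 5.18, 4.14, 3.87 and 6.62 in DKO. The groups overlapped, with control replicate 2 lowest and DKO replicate 5 highest. The 6 Tcrg-V genes outside the rule summed to 0.521 CPM in control and 0.362 in DKO. Of the gamma constant genes, Tcrg-C2 led with 11.98 and 16.1 CPM, followed by Tcrg-C4 with 2.15 and 1.93, Tcrg-C1 with 0.546 and 0.478, and Tcrg-C3 with 0.0775 and 0.0235.

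Of 9 gamma-delta T cell markers, 4 exceeded 1 CPM on average: Trdc, Tcrg-C2, Tcrg-C4 and Cd163l1. Their summed level over the 9 genes was 334 to 516 CPM in control and 409 to 453 in DKO, nearly all of it Trdc. Sox13, Blk and Zbtb16 are transcription and signalling factors of gamma-delta or innate-like T cells. They averaged 0.831, 0.0839 and 0.301 CPM in control and 0.109, 0.193 and 0.355 in DKO. Sox13 ran from 0.0872 to 1.90 CPM within the control group, and the groups overlapped. Cd163l1, a scavenger receptor found on gamma-delta T cells, fell from 7.83 CPM in control to 2.21 in DKO (log2 fold change −1.82, adjusted p = 0.0193), although it did not pass in 3 of the 9 fits that left out 1 library. In bulk RNA, fewer cells of a type and less RNA per cell cannot be told apart, and the part of other cells in the delta and gamma counts was not tested.

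**Figure D4:**
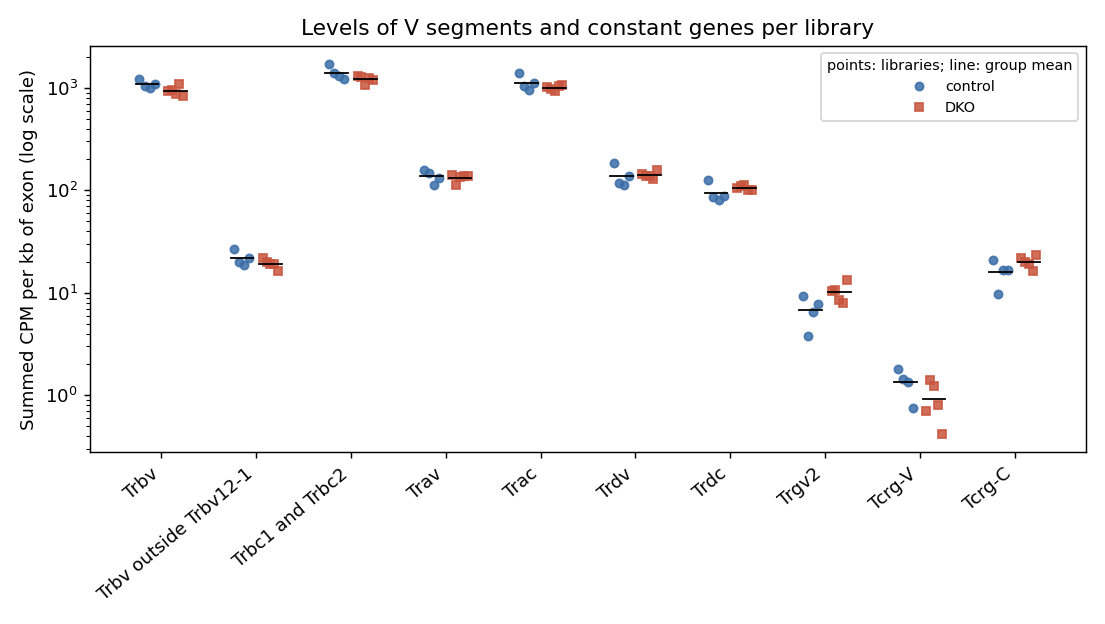
Summed level (CPM per kb of exon, log scale) of V segments and constant genes, 1 point per library for control (n = 4, circles) and DKO (n = 5, squares) with a line at each group mean. Trav lies well below Trac, at 11.5 to 14.4% of it, and Trbv lies close to the beta constant genes. Trdv lies at the level of Trav. Every sum leaves out reads that fit several copies.

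No V segment passed the test for a difference between DKO and control. The quasi-likelihood test of edgeR was fitted to all 14918 genes with enough counts, of which 54 were V segments (14 Trbv, 33 Trav, 6 Trdv and Trgv2). With a Benjamini-Hochberg adjusted p under 0.05, 0 of the 54 were called, while 2.83% of all tested genes were. With an unadjusted p under 0.05 there were 7 of the 54, or 13.0%, against 16.0% of all tested genes. Libraries of the groups did not overlap in CPM for 3 of the 54, or 5.56%, against 8.68% of all tested genes. The V segments thus stood at or under the background on each count. The other 116 members, among them 95 Trav segments, had too few counts to be tested.

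The median log2 fold change of the 54 was −0.05, against −0.01 over all tested genes, with 23 positive and 31 negative. It was −0.27 over the 14 Trbv, −0.05 over the 33 Trav and 0.32 over the 6 Trdv segments. DESeq2's Wald test called 1 V segment, Trav13-1, and leaving out control replicates 1 and 3 together also gave 1, Trav12-3.

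Trbv12-1, the dominant segment of the family of the transgenic beta chain, stood at 464, 402, 383 and 418 CPM in control and 355, 363, 327, 415 and 318 in DKO. Control replicate 1 was highest, and DKO replicate 4 was the only DKO library inside the control range. The log2 fold change was −0.22 (adjusted p = 0.264, SE 0.09). Trbc1 and Trbc2, which are nearly identical in coding sequence, had log2 fold changes of −0.24 and −0.16 (adjusted p = 0.357 and 0.486).

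The other named Trbv segments were low and noisy. Trbv13-2 had 1.49 CPM in control and 1.06 in DKO (log2 fold change −0.47, adjusted p = 0.378, SE 0.24), and Trbv12-2 had 1.58 and 1.38 (−0.19, adjusted p = 0.825, SE 0.33). Trbv15 was the Trbv segment whose groups did not overlap, at 0.341, 0.349, 0.465 and 0.365 CPM in control and 0.158, 0.217, 0.168, 0.117 and 0.336 in DKO (−0.91, adjusted p = 0.274, SE 0.38). It was singled out after its values were seen, and its highest DKO library lay just under the lowest control library.

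Of the alpha segments, Trav13-1 had the smallest adjusted p of the 54. It stood at 0.405, 0.819, 0.774 and 0.835 CPM in control and 1.78, 0.785, 1.26, 1.35 and 1.98 in DKO, so that 4 of 5 DKO libraries exceeded every control library. Its log2 fold change was 1.01 (adjusted p = 0.142, SE 0.33), and over the alternatives without the replicate block its adjusted p ran from 0.0479 in DESeq2's Wald test to 0.307. Trav12-3 had 0.576, 1.48, 0.354 and 1.22 CPM in control and 0.420 to 0.601 in DKO (−0.77, adjusted p = 0.378), and −1.36 with an adjusted p of 0.0289 once control replicates 1 and 3 were left out. Those 2 libraries were its low controls. Trav21-dv12 had a log2 fold change of 0.19 (adjusted p = 0.670, SE 0.18), Trav14-1 of 0.15 (adjusted p = 0.868, SE 0.33) and Trav14-3 of 0.69 (adjusted p = 0.447, SE 0.41). The value of Trav21-dv12 ran from 0.07 without DKO replicate 1 to 0.33 without control replicate 1. Trac itself was 1048 CPM in control and 941 in DKO (−0.14, adjusted p = 0.518).

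Among delta segments, Trdv2-1 and Trdv3 did not overlap between groups. Trdv3, a pseudogene, stood at 0.192, 0.331, 0.133 and 0.156 CPM in control and 0.375, 0.451, 0.441, 0.371 and 0.483 in DKO (log2 fold change 1.06, adjusted p = 0.177, SE 0.37). Trdv2-1 stood at 0.192, 0.0697, 0.0885 and 0.139 CPM in control and 0.296, 0.301, 0.210, 0.254 and 0.652 in DKO (1.49, adjusted p = 0.145, SE 0.49), but its log2 fold change was 0.52 with the strand columns summed. These are levels of 152 and 112 counts over all libraries, and every DKO library lay above every control library.

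The abundant delta and gamma genes had smaller differences. Trdv2-2 had a log2 fold change of −0.14 (adjusted p = 0.692), Trdv1 of 0.41 (adjusted p = 0.547, SE 0.30), Trdv4 of −0.02 (adjusted p = 0.967) and Trgv2 of 0.58 (adjusted p = 0.288, SE 0.25). Without DKO replicate 5 the value of Trdv1 was 0.08, and without control replicate 3 it was 0.25. Trdc was 366 CPM in control and 408 in DKO (0.17, adjusted p = 0.510), and Tcrg-C2 had 0.44 (adjusted p = 0.322). None of the 7 tested constant genes passed. The ratio of Trdc to Trac per kb, looked at after the values were seen and not tested, was 7.88 to 9.10% in control and 9.42 to 11.9% in DKO, without overlap, and 10.3 to 12.1% and 12.3 to 15.6% with the strand columns summed. The size of this ratio depends on the annotated exon lengths, 3865 bases for Trdc and 935 for Trac.

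**Figure D5:**
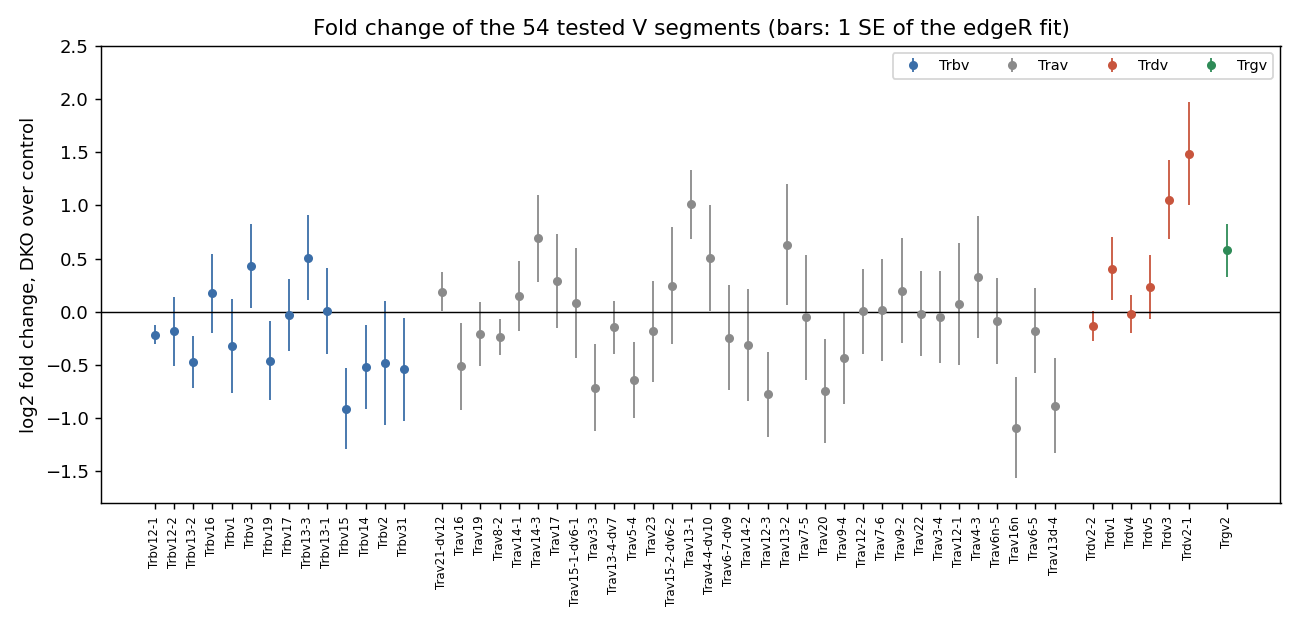
Log2 fold change of DKO over control for the 54 tested V segments, grouped by locus and ordered by mean share, with bars of 1 SE from the edgeR fit. Trbv12-1 at −0.22 and Trav21-dv12 at 0.19 lie near 0, and the widest departures, Trdv2-1 at 1.49 and Trav16n at −1.09, are in segments of low count.

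Other genes of the marker lists differed between the groups. Cd8b1, the CD8 beta chain, fell from 2260 CPM in control to 1694 in DKO (log2 fold change −0.40, adjusted p = 0.0428), but passed in 1 of the 9 fits that left out a library, while Cd8a had −0.01 (adjusted p = 0.973). In the myeloid list, whose 6 genes summed to 165 to 194 CPM in control and 112 to 120 in DKO, Ctss fell from 81.7 to 51.1 CPM (adjusted p = 0.00734) and Cd68 from 29.3 to 16.7 (adjusted p = 0.0138). The other 4 of the list did not pass: Itgam had 58.9 and 37.9 CPM, Lyz2 2.45 and 5.83 (log2 fold change 1.27, adjusted p = 0.206), Csf1r 1.83 and 2.36, and Adgre1 1.03 and 1.01. The part of any of these in the V segment values was not tested. None of the 4 tested B cell genes passed.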

How the data were processed

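RNA sequencing counts of 9 libraries (4 control, 5 DKO) were used. The files deposited by the authors list raw counts, whole numbers of reads for each gene, in STAR's format: 1 unstranded and 2 strand columns. The submitters' processing notes name Trim Galore 0.6.0, STAR 2.7.8a and mm10. Per the labels' protocols, polyA RNA was made into libraries with SMART-Seq v4 and Nextera Flex, a kit that does not mark strand. Annotation release and read length: not given in the sources used here. This format counts only uniquely mapped reads. Shares of a library were 10.3 to 16.7% for unmapped reads, 5.80 to 6.79% for multimapping reads, 4.01 to 5.20% outside any feature and 4.97 to 5.31% ambiguous, and these 4 lines stayed out of library sizes and tests. The first strand column held 49.9 to 50.1% of the strand counts, so the unstranded column was used.

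Of 55471 identifiers, 55230 were found in GENCODE M21. CPM were computed from the deposited counts. Groups were compared in R 4.3.3 by the quasi-likelihood F-test of edgeR 4.0.16 (robust, TMM factors 0.987 to 1.03, filterByExpr with minimum count 10 and minimum total 15, Benjamini-Hochberg over 14918 genes at 0.05), and 3 shares with exact permutation tests over all relabellings. The edgeR script was tested on simulated data. Alternatives were DESeq2 1.42.0 (size factors and Wald test), no filter, a filter of 1 CPM in 4 libraries, each strand column and their sum, functional segments alone in the locus total, TMM-scaled sizes, the replicate number as a block, and leaving out libraries. Words of 50 bases were searched in all GENCODE M21 transcripts on both strands, and V exons were aligned with edlib 1.3.9.post1, under Python 3.11.15 with scipy 1.17.1, pandas 2.3.3 and numpy 2.4.6. Figures used matplotlib 3.10.9. No 2 libraries of a group were duplicates (chi-square per degree of freedom 8.91 or more).

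Named segments were all Trbv12 and Trav14 members, the 5 Trbv, 10 Trav and 3 Trdv segments with the largest mean share, Trgv2 (the rule allowed 3 Trgv segments and 1 exists), and any V segment past the threshold, with every constant gene, the 3 leading Traj and Trbj segments and list genes past the threshold. Trgc genes are named Tcrg-C in GENCODE M21. Others named were chosen after their values were seen. The members and lists were chosen with earlier results of these data known. Some genes of the marker lists are not reported here.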

Additional observations from a re-analysis of the deposited data

Results flagged for a closer look

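Of 50 groups of 4 or 5 libraries examined, 6 had 1 library far from the rest, and chance alone marks about 1 group in 20. Control replicate 3 accounted for 3 of them. Its Trav13-4-dv7 share of Trav counts was 4.81%, against 2.78 to 3.12% in the other control libraries. Its Trbv1 share of Trbv counts was 0.0623%, against 0.216 to 0.243%. Its Trdv4 share of Trdv counts was 24.7%, against 18.2 to 18.9%.

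DKO replicate 5 accounted for 2 linked values, since shares of a locus sum to the whole. Its Trdv1 share of Trdv counts was 41.5%, against 17.5 to 23.0% in the other DKO libraries, and its Trdv2-2 share was 40.3%, against 52.0 to 56.6%. The summed Trav level of DKO replicate 2 was 42.7 CPM, against 50.5 to 53.4 CPM in the other DKO libraries.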

How the results depend on the processing

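The count of V segments past the threshold was 0 of 54, and it became 1 with DESeq2's Wald test (Trav13-1) and 1 without control replicates 1 and 3 (Trav12-3). It was 0 with the replicate number as a block and 0 in each fit that left out 1 library. Same-numbered libraries deviated with correlations of −0.0495, −0.026, −0.0024 and −0.1019. Control replicates 1 and 3 stood apart and weigh on the control deviations, so these values do not tell whether same-numbered libraries were paired. The block moved the calls over all genes from 422 to 67. Leaving out 1 library gave 179 to 749 such calls, and DESeq2's Wald test gave 1059.

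The difference in the Trbv12-2 share (0.00722 percentage points) was −0.0337 in the first strand column and −0.0276 to 0.0476 when 1 library was left out. The range for the Trav14-1 share was −0.0631 to 1.32 and for the Trbv12-1 share −0.148 to −0.00753. Summed Trdv was 54.5 CPM and became 75.9 with the strand columns summed, 73.8 in the first and 77.9 in the second strand column. With counts per kb of exon, added after seeing the data, the Trbv12 family took 98.3% and the Trav14 family 11.9%.

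Of the log2 fold changes of 20 named segments, 335 alternative values kept their direction and side of the threshold and 22 changed sign, none past the threshold. Under the replicate block Trav14-1 was −0.11 and Trdv4 was 0.075. In the first strand column Trav14-2 was 0.17, and in the second Trdv4 was 0.021. Without control replicates 1 and 3, Trav14-2 was 0.46, Trbv16 −0.21 and Trdv4 0.17. When each library was left out in turn, Trav14-1 ran from −0.052 to 0.31, Trav14-2 from −0.62 to 0.34, Trav15-1-dv6-1 from −0.24 to 0.87, Trav16 from −0.72 to 0.20 and Trav17 from −0.084 to 0.52. In those fits Trbv12-2 ran from −0.41 to 0.011, Trbv16 from −0.044 to 0.35, Trdv2-2 from −0.21 to 0.014 and Trdv4 from −0.11 to 0.081. Trdv1 ran from 0.077 to 0.59 and Trav21-dv12 from 0.071 to 0.33. Control replicate 1 turned the sign of Trav14-2, Trbv12-2, Trdv2-2 and Trdv4. The cause was not tested.

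The filter on low counts left 116 of 170 members out of the test, of which 52 had no count. Uniquely mapped counts give no level for the 42 Trav segments without a unique stretch of 50 bases. Read length is not given, and of stretches of 100 bases 15.8% were unique for Trav13d-3 and 0.41% for Trav11. Trav13d-3 and Trav13n-3 also share 391 and 337 exon bases with antisense genes, where unstranded counting drops reads.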
